A study of Mus musculus with 28 samples.

Results

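The resting transcriptome described here is that of retinal microglia from naïve mice, the 10 samples of 28 in the series that came from retinas given no lipopolysaccharide (LPS). All 10 samples so labelled were used and no LPS-treated retina enters any value. Each sample was a sort of live tdTomato-high, DRAQ7-negative cells from a single retina, so that a retina is the unit of replication. The mice were male Cx3cr1CreER:R26-tdTomato heterozygotes of the C57BL/6 background, in which Cre recombinase expressed from the Cx3cr1 locus is switched on by tamoxifen and then turns on a red fluorescent protein. All groups of the study carry the same reporter, and per the methods the mice had received tamoxifen eye drops some weeks before the retinas were taken. The gate therefore rests on a gene that other mononuclear phagocytes can also express. Retinas 1 to 6 belonged to experiment 1 and retinas 7 to 10 to experiment 2, and 5 of the 10 were left and 5 right eyes. The labels do not tie a retina to a mouse, so 2 retinas may have shared an animal, and any p-value measures the spread between these retinas only.

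Microglia are the resident macrophages of the retina. In the undisturbed tissue they extend branched processes, sense nucleotides released by neighbouring cells through purinergic receptors, tag and engulf synaptic and cellular debris with the help of complement, and break it down in lysosomes. Their identity depends on signals through the CSF1 receptor and TGF-beta and on lineage factors such as PU.1, and a set of surface receptors including P2ry12, Gpr34, Siglech, Cx3cr1 and Mertk is commonly used to recognise them in this homeostatic state.

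Expression was given as RPKM, the read number of a gene scaled to its transcript length and to the size of the library. The unit takes out transcript length and library size but not base composition, and both the summed RPKM and the trend with GC content differed between retinas, as given below. The deposited table gives 7510000 to 15300000 alignments per retina, so that 1 read on a transcript of median length was worth between 0.0558 and 0.114 RPKM. Of 40021 genes listed, 7352 were at 0 in all 10 retinas, 9987 had a median of at least 1 RPKM, 3448 of at least 10, 468 of at least 100, 36 of at least 1000 and 3 of at least 10000.

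Several retinas stood apart, and their values are set out first because most results move with them. Between 6552 and 8562 genes reached 1 RPKM in retinas 3 to 6, all of experiment 1, against 10358 to 11825 in the other 6. Alignments did not separate them, at 10200000 to 12300000 in retinas 3 to 6 against the full range in the rest. Retina 1 had the lowest summed RPKM, 298434 against 343939 to 404838 in the others. It also had the largest tilt with base composition, measured as the median log2 deviation of genes with over 54.9% GC minus that of genes with under 44.1% GC. This tilt was 1.55 in retina 1 and 0.54 in retina 7, lay between -0.86 and -0.44 in retinas 3 to 6, and lay between -0.09 and 0.07 in the remaining 4. Retinas 3 to 6 are called the few-gene retinas below, and results that rest on them are given with and without them. The share of all genes that separated these retinas from the other 6 is not given, so no such order below is particular to the genes named.

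**Figure D1:**
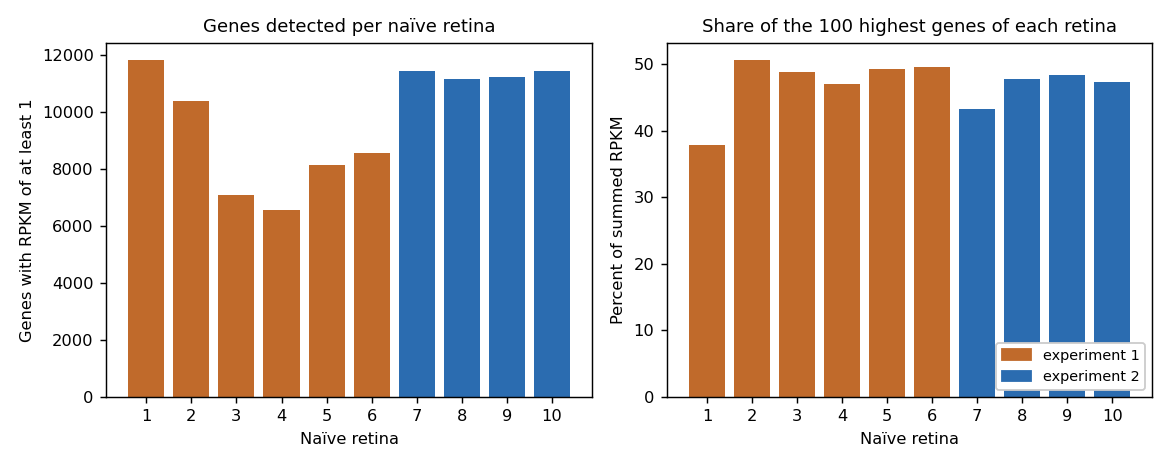
Genes that reached 1 RPKM (left) and percent of the summed RPKM held by the 100 highest genes of each retina (right), with 1 bar per naïve retina, orange for experiment 1 and blue for experiment 2. Retinas 3 to 6 lie between 6552 and 8562 genes and the others between 10358 and 11825, whereas the share of the top 100 genes is lowest in retina 1, at 37.8%.

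The RNA of naïve microglia was concentrated in few genes. The single highest gene of a retina held 4.61 to 9.48% of its summed RPKM (median 7.56%), the 10 highest held 18.0 to 29.5% (median 25.2%) and the 100 highest held 37.8 to 50.7% (median 48.1%). The single highest was Gm37376 in retinas 2, 5 and 6 and Cst3 in the others. Gm37376 is a gene model whose reads cannot be told from those of Malat1, as set out below. It held 1.16 to 9.48% of summed RPKM (median 6.23%), and the shares without it are not given here. Between 94 and 326 genes made up the first 50% of the sum, with a median of 122.5, and retina 1, at 326, was the most even. The share of the top 100 was 47.2% ± 4.73 (SD, n = 6) in experiment 1 and 46.7% ± 2.33 (SD, n = 4) in experiment 2 (exact two-sided permutation test, p = 0.829, adjusted p = 0.829 over the 2 tests of this kind). Genes detected numbered 8754 ± 2002 (SD, n = 6) in experiment 1 and 11299 ± 146 (SD, n = 4) in experiment 2. This difference of 2546 genes had p = 0.0476 and an adjusted p of 0.0952 in the exact two-sided permutation test, whose smallest possible p was 0.00952. Without retina 1 the difference was 3160 genes with an adjusted p of 0.0317 by the same exact test, from the smallest p it then allowed. Without the few-gene retinas it was 208 genes with an adjusted p of 0.667 by that test. Only retinas 1 and 2 of experiment 1 then remained, too few for the test to reach 0.05 at any values, so this p decides nothing. The experiment and the few-gene retinas cannot be told apart.

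Cystatin C, a secreted inhibitor of cysteine proteases, had the highest median of all genes. Its transcript Cst3 (chr2:148871722-148875692, GRCm38, minus strand) was at 13759 RPKM in the lowest retina, 27418 at the median and 35642 in the highest, and ranked first or second in each. Ctss, which encodes the lysosomal protease cathepsin S, held rank 3 in each of the 10 retinas, at 6890, 10465 and 13118 RPKM in the same order. The actin-binding thymosin gene Tmsb4x was at 2353, 6716 and 8426 RPKM. These genes and Gm37376 were among the 5 that belonged to the top 20 in all 10 retinas, and the lowest value of each of these 4 came from retina 1. In all, 29 genes belonged to the top 100 of all 10 retinas, whereas 212 belonged to that of at least 1.

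The other high-ranking genes were those of complement, iron storage, ubiquitin, mitochondria and Fc receptor signalling. C1qb, a chain of the complement initiator C1q, ranked sixth with a median of 4541 RPKM. The ferritin chains Fth1 and Ftl1 had medians of 2778 and 2317 RPKM, the calmodulin gene Calm2 had 2646, and the ubiquitin gene Ubb 2463. The mitochondrially encoded mt-Cytb, mt-Atp8 and mt-Atp6 were at 2411, 2280 and 2168 RPKM. Fcer1g, the signalling chain shared by several Fc receptors, was at 2130 RPKM, and B2m, the light chain of MHC class I, at 1952. Gpr34 closed the top 20 at 1816 RPKM. The 20 genes together held 18.5 to 34.1% of summed RPKM, with a median of 30.1%. Restricted to protein-coding genes of the nuclear chromosomes, a view added after the data were seen, 12 of these 20 remained in the top 20 and Gpr34 and P2ry12 ranked 12 and 13. The rest of the 20 are left out by the restriction itself, so the count of 12 is no test of the ranking.

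**Figure D2:**
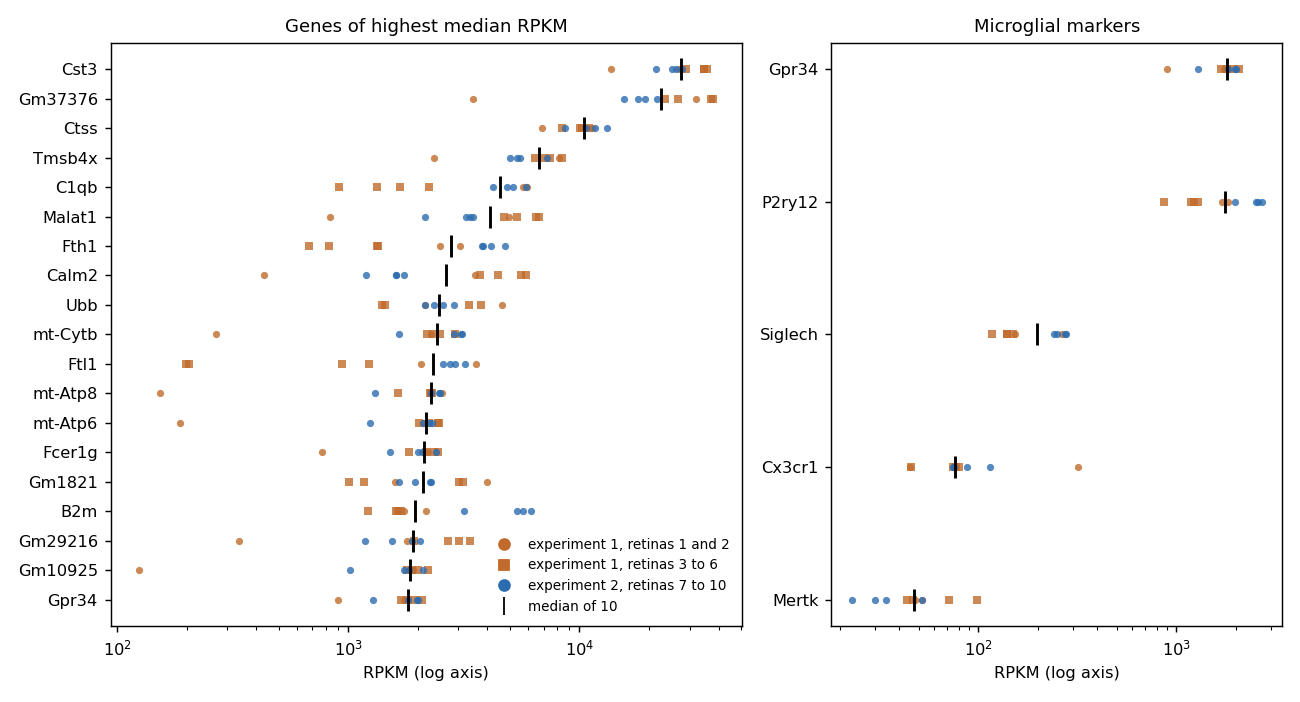
RPKM on a log axis of 19 of the 20 genes with the highest median over 10 naïve retinas (left) and of the 5 microglial markers (right). Each point is a retina, squares are retinas 3 to 6, orange is experiment 1, blue is experiment 2 and black bars are medians. Ctss lies within a narrow range, C1qb, Fth1 and Ftl1 are lowest in retinas 3 to 6, and the mitochondrial genes are lowest in retina 1.

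Several of the highest ranks cannot be assigned to a single gene. Gm37376, second at a median of 22587 RPKM (3461 to 37970), is a gene model still awaiting experimental evidence, on the plus strand of chr19:5801941-5802393, that lies within the long noncoding RNA Malat1 (chr19:5795690-5802672, minus strand), itself at 4087 RPKM. The library kit marks no strand, so reads from the 2 cannot be told apart, and the ratio of Gm37376 to Malat1 stayed between 4.15 and 7.28. Gm1821 (chr14:46084028-46085000), a processed pseudogene of the ubiquitin family, was at 0.710 to 0.945 times Ubb. Gm10925 and Gm29216, with Gm28437 at rank 30, are pseudogenes in a stretch of chromosome 1 that resembles mitochondrial DNA. Gm28437 was at 1.00 to 1.05 times mt-Co3 in every retina and Gm10925 at 0.664 to 0.909 times mt-Atp6. The counting method used for the deposited values divides reads between such copies, and these values are uncertain. Of the top 100 genes, 78 were protein coding in the nuclear genome, 13 lay on the mitochondrial chromosome and 6 were pseudogenes.

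To show the sequence context of the highest genes, the promoter windows of RefSeq (GRCm38.p6, 250 bases before to 50 after each start) were searched on both strands for 5 motifs, and 57 of the top 100 genes had at least 1 window. The letters GAGGAAGT, a strong form of the site recognised by PU.1 and other ETS factors, occurred in 4 of 67 windows (5.97%) against 3.20% of all 32851. These windows belonged to Ctss, C1qc, Cd53 and Ctsc, which are shown over 80 bases because they are the top 100 genes that hold the motif. Capitals mark the motif, which reads ACTTCCTC on the gene's strand in all 4. The stretches are chr3:95526716-95526795 (plus strand) for Ctss, chr4:136893066-136893145 (minus) for C1qc, chr3:106790136-106790215 (minus) for Cd53 and chr7:88277898-88277977 (plus) for Ctsc.
Ctss: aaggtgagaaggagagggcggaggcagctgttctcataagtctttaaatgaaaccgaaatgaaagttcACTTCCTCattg
C1qc: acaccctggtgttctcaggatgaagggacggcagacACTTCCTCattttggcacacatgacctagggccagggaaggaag
Cd53: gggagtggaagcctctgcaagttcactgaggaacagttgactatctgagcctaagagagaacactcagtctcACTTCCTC
Ctsc: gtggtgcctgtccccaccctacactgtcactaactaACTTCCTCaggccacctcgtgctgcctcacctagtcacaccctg
Counted from the start site without a base 0, the motif spans bases -2 to 6 in Ctss, -195 to -188 in C1qc, 7 to 14 in Cd53 and -151 to -144 in Ctsc. TATAAA was found in 20.9% of top 100 windows against 13.6% of all, GGGCGG in 53.7% against 35.7%, CCAAT in 31.3% against 37.4%, and the AP-1 letters TGACTCA in 4.48% against 5.20%. Among the 3173 windows of genes with a median of at least 10 RPKM the shares were 8.45% for TATAAA, 4.25% for GAGGAAGT, 60.6% for GGGCGG, 39.6% for CCAAT and 3.12% for TGACTCA, so that against expressed genes GGGCGG was the less frequent in the top 100 and TGACTCA the more frequent. A match is a description of letters and not of binding.

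All 5 microglial markers were well above 1 RPKM in all 10 retinas, as the label implies. P2ry12, the ADP receptor that directs process movement, was at 866, 1769 and 2714 RPKM in the lowest, median and highest retina and ranked between 11 and 40. Gpr34, a lysophospholipid receptor, was at 902, 1816 and 2080 RPKM. Siglech, a sialic acid-binding lectin, was at 117, 197 and 278 RPKM, Cx3cr1, the fractalkine receptor that carries the reporter's Cre, at 45.2, 76.2 and 318 RPKM, and Mertk, a receptor for apoptotic cells, at 23.1, 47.4 and 98.2 RPKM. Gpr34 and P2ry12 could not be ordered, since Gpr34 was the higher in only 4 of 10 retinas despite its higher median. Their ranges did not touch that of Siglech, which was exceeded by P2ry12 at least 5.80-fold within each retina. Siglech was above Cx3cr1 in 9 of 10 retinas and Cx3cr1 above Mertk in 7 of 10, with overlapping ranges in both cases. Retinas 3 to 6 were below all others for P2ry12, at 866 to 1291 RPKM against 1714 to 2714, and for Siglech, at 117 to 149 RPKM against 154 to 278, whereas for Gpr34, at 1686 to 2080 RPKM, they were not. Without them the medians of P2ry12 and Siglech were 2264 and 257 RPKM. How many of all genes separated in this way is not given here, so the order cannot be read as particular to P2ry12 and Siglech. The highest Cx3cr1 value came from retina 1, and the next was 115 RPKM in retina 7.

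The wider homeostatic programme was present as a whole. Of 27 listed genes, 27 had a median of at least 1 RPKM, 13 of at least 100, and 5 ranked in the top 100. Their summed share was 9.55 to 11.96% of all RPKM, with a median of 10.6%, and the few-gene retinas, at 10.8 to 11.96%, lay above the other 6, at 9.55 to 10.7%. This order was that of Cst3 alone, which held 8.41 to 9.28% in the few-gene retinas and 4.61 to 7.21% in the others. The other 26 genes together ran the opposite way, at 2.39 to 2.70% in retinas 3 to 6 and 3.21 to 5.84% in the other 6, with a median of 3.22%. Beside Cst3, Gpr34 and P2ry12, Tmem119, a surface protein of microglia, was at 70.5 to 1167 RPKM with a median of 130, and its highest value again came from retina 1. Trem2, a lipid-sensing receptor, was at 62.6, 118 and 223 RPKM. Of the 26 genes of the list with a median of at least 10, 1 was in the stable class and 0 in the variable class, as those classes are defined below. Without retinas 3 to 6 it was 2 stable and 5 variable of 27, and with the GC and length trends removed 10 stable and 0 variable of 26.

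Transcription factors that set microglial identity were expressed at a far lower level than the genes above. Of 26 listed, 22 had a median of at least 1 RPKM and none reached 100, and all 26 together held 0.0937 to 0.243% of summed RPKM, the highest in retina 1. Spi1, which encodes PU.1, was at 7.54, 46.2 and 104 RPKM in the lowest, median and highest retina, with the 4 lowest values in the few-gene retinas. Hhex was at 31.5, 42.0 and 99.5 RPKM and Maf at 18.7, 31.9 and 66.8. Of the 15 factors with a median of at least 10 RPKM, 5 belonged to the stable class, among them Mef2c, Mef2a and Klf6, and 0 to the variable class. Without retinas 3 to 6 it was 4 stable and 1 variable of 13, and with the GC and length trends removed 4 stable and 2 variable of 15.

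Receptors for the survival and quiescence signals were well detected, whereas their ligands were low or absent. Csf1r was at 138, 175 and 558 RPKM and the TGF-beta receptor gene Tgfbr1 at 59.1, 107 and 142 RPKM. The ligand gene Il34 was listed at 0 in all 10 retinas and Csf1 had a median of 0.357 RPKM. Tgfb1 had a median of 1.41 RPKM, with 31.6 RPKM in retina 1 and at most 5.17 RPKM in the other 9. Among 18 purinergic receptors and ectonucleotidases 10 had a median of at least 1 RPKM. P2ry12 and P2ry13 (81.0 to 406 RPKM, median 277) led, followed by the ectonucleotidase Entpd1 (median 31.5 RPKM) and P2ry6 (median 15.3 RPKM, 1.11 to 93.0).

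Lysosomal genes took the largest share of any list, at 12.2 to 14.5% of summed RPKM with a median of 13.3%. Cst3, which the homeostatic list also holds, took more than all other members of the list at the median, 7.14%, and the remaining 35 genes took 4.49 to 9.91% with a median of 5.89%. Of 36 genes, 33 had a median of at least 1 RPKM and 8 ranked in the top 100. Cst3, Ctss and the cathepsin Ctsz (732 to 1437 RPKM, median 1032) were among the 4 highest of the list. Ctsd, which encodes cathepsin D, ranged from 170 to 4373 RPKM, with a median of 429, and its highest value, in retina 1, was followed by 906 RPKM in retina 7. Among Fc receptors and adaptors, 10 of 12 had a median of at least 1 RPKM, led by Fcer1g, Fcgr3 (224 to 2405 RPKM, median 1443), Tyrobp (241 to 2257 RPKM, median 1350) and Fcgr2b (47.2 to 161 RPKM, median 99.7).

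The classical complement chains were among the highest genes, and C1qa but neither C1qb nor C1qc belonged to the variable class. C1qb was at 915 to 2237 RPKM in retinas 3 to 6 and at 4240 to 5949 RPKM in the other 6. C1qc was at 284 to 670 RPKM and at 1409 to 3381 RPKM in these same sets, and C1qa at 26.9 to 230 RPKM and at 956 to 1842 RPKM. The few-gene retinas were thus below all others for each of the 3 chains, and the ratio of C1qb to C1qa ran from 3.18 to 49.5. The share of all genes that separated in this way is not given here, so the order cannot be read as particular to these chains. Their transcripts have a GC content of 57.4%, 56.6% and 59.5% in the same order. The receptor gene C3ar1, of the stable class, did not share this pattern, at 47.4 to 77.7 RPKM in retinas 3 to 6 and at 58.0 to 86.1 RPKM in the others, with a GC content of 43.0%. The central component C3 was listed at a median of 0 and never exceeded 1.21 RPKM. The part of base composition and of the number of genes detected in these values was not tested.

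MHC class II had the highest median SD of the 32 lists with a gene at a median of at least 10 RPKM over the 10 retinas. With the same genes kept, it had the third highest without retinas 3 to 6. Cd74, the invariant chain, was at 0.239 RPKM in the lowest retina, 964 at the median and 4694 in the highest, and H2-Ab1 at 0, 218 and 899 RPKM. H2-Aa was at 0, 73.1 and 331 RPKM and H2-Eb1 at 0, 63.4 and 171 RPKM. Retina 2 was the highest for Cd74, H2-Ab1 and H2-Aa, and retinas 3 and 4 were the lowest for all 4. The peptide-loading gene H2-DMa was more even, at 21.8 to 207 RPKM with a median of 170. The list as a whole took 0.0342 to 1.58% of summed RPKM, and the median SD of log2(RPKM + 1) of its 7 genes with a median of at least 10 RPKM was 2.99, against 0.86 for all 3448 such genes. In the 6 retinas without the few-gene ones the same 7 genes had a median SD of 1.25, against 0.46 for all, 1.37 for mitochondrially encoded mRNAs and 1.34 for perivascular macrophage genes. With genes chosen by their median in those 6 retinas, 8 MHC class II genes had a median SD of 0.92. Above this lay mitochondrially encoded mRNAs (1.37), 5 perivascular macrophage genes (1.25) and 1 gene each of the monocyte (1.05) and neutrophil (0.95) lists.

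**Figure D3:**
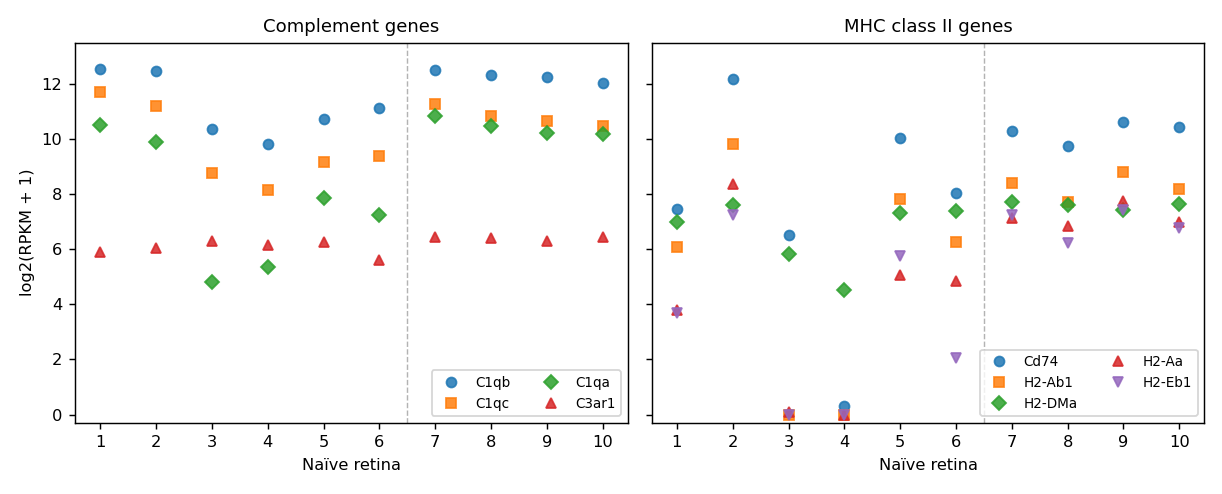
Levels of 4 complement genes (left) and 5 MHC class II genes (right) as log2(RPKM + 1) in each naïve retina, with the dashed line between experiments 1 and 2. The 3 C1q chains are lowest in retinas 3 to 6 while C3ar1 is not, and Cd74 spans 0.239 RPKM in retina 4 to 4694 RPKM in retina 2.

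Markers of perivascular macrophages, which also express Cx3cr1 and MHC class II, varied between retinas as well, in part in the same order. All 5 defining markers had a median of at least 1 RPKM, at 174 RPKM for the chemokine gene Pf4, 16.4 for the mannose receptor gene Mrc1, 6.44 for Lyve1, 3.66 for Cbr2 and 3.34 for Cd163. The summed level of these 5 was 0.130 RPKM in retina 4, 213 at the median and 509 in retina 2, the retina with the highest Cd74. Pf4 alone was at 410 RPKM in retina 2, so that this sum is mainly that of 1 gene. The order was not that of MHC class II throughout. Retina 3 had a sum of 89.8 RPKM with H2-Ab1 at 0, and retina 1 a sum of 12.9 RPKM with H2-Ab1 at 65.9 RPKM. Of the 12 listed genes 9 had a median of at least 1 RPKM, and the list held 0.00399 to 0.165% of summed RPKM. Within experiment 1 the summed level of the 12 genes was 13.7 to 666 RPKM. Its part in the MHC class II values was not tested. In bulk samples such as these, fewer cells of a type and less RNA per cell cannot be told apart. Retinas 3 and 4, lowest for Cd74, H2-Ab1, H2-Aa and H2-Eb1, also had the fewest genes at 1 RPKM, 7088 and 6552. The part of this in the low values was not tested.

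Photoreceptor transcripts were present in each sort. All 15 listed rod genes had a median of at least 1 RPKM, 6 ranked in the top 100, and together they held 0.668 to 2.40% of summed RPKM, with 0.668 to 0.765% in retinas 3 to 6. Gngt1, a rod transducin subunit, was at 1465 to 1844 RPKM in retinas 3 to 6 and at 245 to 1213 RPKM in the others, and the phototransduction regulator Pdc at 351 to 968 RPKM over all 10. The transducin subunit gene Gnat1 ran the other way, at 53.7 to 83.9 RPKM in retinas 3 to 6 and at 273 to 1880 RPKM in the others. All 5 defining rod markers, among them Gnat1, Sag, Pde6b and Nrl, had a median of at least 1 RPKM. Cone, bipolar and ganglion cell genes were lower, with Opn1mw (21.7 to 314 RPKM, median 106), Pcp2 (37.0 to 264 RPKM, median 133) and Sncg (0.395 to 150 RPKM, median 91.7) as the highest defining markers. Amacrine cell, Müller glia and astrocyte lists held at most 0.0443 and 0.0686% of summed RPKM.

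Defining markers of other blood and vessel cells were low or listed at 0. The 5 defining neutrophil markers, Ly6g, S100a8, S100a9, Retnlg and Camp, were listed at 0 in all 10 retinas. The summed level of the 5 lymphocyte markers never exceeded 0.0806 RPKM, that of the 4 monocyte markers 2.92 RPKM, that of the 4 endothelial markers 2.02 RPKM and that of the 4 pericyte markers 0.796 RPKM. The whole lists reached higher sums through single genes that do not define these cells. The 14 lymphocyte genes summed to 20.2 to 81.3 RPKM, nearly all of it Cd79b, a chain of the B cell receptor complex, at 20.2 to 81.3 RPKM with a median of 33.4. The 11 monocyte genes summed to 0.139 to 32.1 RPKM, of which F13a1, a coagulation factor chain also in the perivascular macrophage list, had a median of 5.69 RPKM. The neutrophil list summed to 5.60 to 83.2 RPKM, nearly all of it the receptor gene Csf3r, at 5.60 to 83.02 RPKM. The 3 defining pigment epithelium markers reached 6.55 RPKM in the highest retina, with a median of 0.825, and the list of 8 reached 26.0 RPKM, led by Ttr at a median of 8.34 RPKM. Globin transcripts were detected at 42.8 RPKM at most over the 4 erythrocyte markers, at a median of 18.4. Male labels held in all 10 retinas, by the Y-linked transcripts Eif2s3y (22.6 to 90.5 RPKM) and Ddx3y (11.5 to 48.7 RPKM) and by Xist at no more than 0.0188 RPKM.

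Genes linked to activation were partly present at rest. Of 24 genes listed for disease-associated microglia, 22 had a median of at least 1 RPKM and 7 ranked in the top 100, and they held 1.24 to 5.09% of summed RPKM. The lead was taken by Fth1, B2m, Apoe (196 to 4820 RPKM, median 1658) and Tyrobp, all of them also known from resting cells, whereas Gpnmb had a median of 0 and Itgax one of 1.43 RPKM. Retinas 3 to 6 held 1.24 to 2.03% and the other 6 held 4.40 to 5.09%, without overlap. Other lists separated in the same direction, among them complement, at 0.460 to 0.857% against 2.03 to 3.76%, and rod genes. The order therefore cannot be read as particular to this list. Fewer genes were detected in retinas 3 to 6, and the part of this in the shares was not tested. Of 28 immediate early genes 15 had a median of at least 1 RPKM and 4 of at least 10, led by Rhob (20.4 to 237 RPKM, median 65.7), Klf6 (median 27.0), Btg2 (median 21.3) and Ier2 (median 11.02). Fos had a median of 0.570 RPKM and Egr1 of 0.0865 RPKM. Of 15 heat shock genes 12 had a median of at least 1 RPKM, with Hspa8 at 85.5 to 730 RPKM and a median of 442.

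Chemokine transcripts were the main secreted signals at baseline. Of 33 cytokine and chemokine genes, 19 had a median of at least 1 RPKM and 4 of at least 100. Ccl12, a ligand of the monocyte receptor Ccr2, was at 163, 811 and 2758 RPKM in the lowest, median and highest retina, with the highest in retina 3 and the lowest in retina 1. Ccl6 was at 168, 254 and 482 RPKM and Ccl3 at 39.8, 178 and 326 RPKM. The inflammatory cytokine gene Il1a was at 0.595 to 102 RPKM with a median of 74.6, lowest in retina 3. Il1b and Tnf had medians of 0.443 and 0.364 RPKM and never exceeded 4.57 and 4.29 RPKM, and Il10 and Il12b had medians of 0. Of 35 interferon-stimulated genes 30 had a median of at least 1 RPKM, led by Ifitm3 (53.8 to 305 RPKM, median 153) and Ifi27l2a (34.7 to 331 RPKM, median 97.8), and the list held 0.115 to 0.332% of summed RPKM. Of 20 toll-like receptors and adaptors 16 had a median of at least 1 RPKM, led by Ly86 (median 440), Cd14 (median 310), Unc93b1 (median 68.1) and Ly96 (median 64.1). Tlr4, the LPS receptor for which Cd14 and Ly96 are partners, had a median of 8.94 RPKM, with a range of 0.697 to 12.4. MHC class I genes held 0.463 to 1.77% of summed RPKM, with 12 of 14 at a median of at least 1, led by B2m, H2-D1 (43.6 to 787 RPKM, median 156), H2-K1 (median 81.9) and Psmb8 (median 77.3).

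The energy and translation machinery accounted for a further share. The 13 mitochondrially encoded mRNAs held 0.553% of summed RPKM in retina 1 and 2.59 to 4.73% in the other 9. All 83 nuclear genes of oxidative phosphorylation had a median of at least 1 RPKM and together held 1.65 to 5.31%. They were highest in the few-gene retinas, at 4.43 to 5.31% against 1.65 to 3.49% in the other 6, in the direction opposite to the C1q chains. Ndufa1, Cox8a, Ndufa4 and Cox4i1 led with medians of 487, 486, 484 and 405 RPKM. Glycolysis genes behaved in the reverse way, at 0.109 to 0.176% in retinas 3 to 6 and 0.340 to 0.845% in the others, and 5 of their 14 genes with a median of at least 10 RPKM belonged to the variable class, and 4 of 14 without retinas 3 to 6 as with the GC and length trends removed. The enolase gene Eno1 was at 18.0 to 32.7 RPKM in retinas 3 to 6 and at 145 to 375 RPKM elsewhere, and the aldolase gene Aldoa at 9.32 to 61.5 RPKM and at 167 to 438 RPKM. Ldhb, a lactate dehydrogenase subunit, had the highest median of the list, 352 RPKM. The orders of oxidative phosphorylation and glycolysis cannot be read as particular to these lists, since others, such as complement, separated as well. Ribosomal protein genes held 1.08 to 2.501%, with 81 of 86 at a median of at least 1 RPKM. Rps29 and Rplp1, both among the 4 highest, had medians of 234 and 223 RPKM. Cell division genes were low, as 7 of 20 had a median of at least 1 RPKM and the list held 0.0118 to 0.0348%, led by Pcna at a median of 46.5 RPKM, while Mki67 had a median of 1.98 RPKM.

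**Figure D4:**
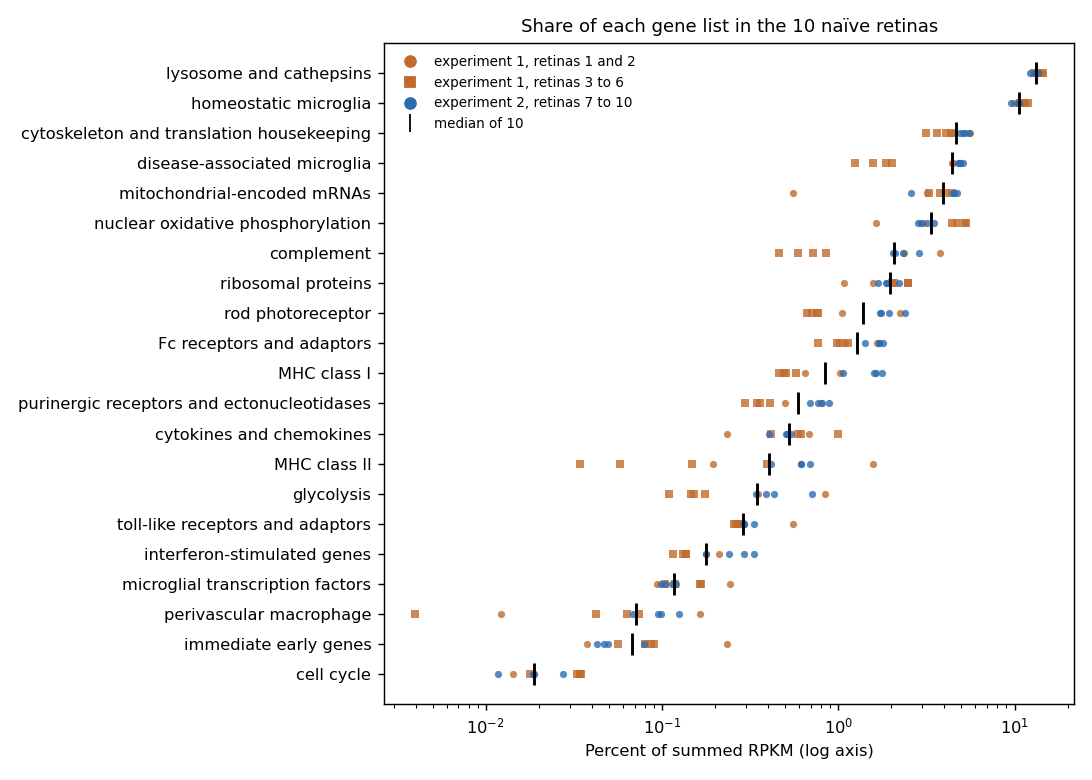
Percent of summed RPKM (log axis) taken by 21 gene lists in each naïve retina. Each point is a retina, squares are retinas 3 to 6, orange is experiment 1, blue is experiment 2 and black bars are medians. Lysosomal and homeostatic lists span 12.2 to 14.5% and 9.55 to 11.96%, whereas MHC class II spans 0.0342 to 1.58%. Without Cst3, which both hold, the lysosomal and homeostatic lists span 4.49 to 9.91% and 2.39 to 5.84% (not drawn).

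To ask which genes were stable and which variable at rest, the SD of log2(RPKM + 1) over 10 retinas was taken for the 3448 genes with a median of at least 10 RPKM, and the median SD of genes at a like level was subtracted. The lowest and highest 10% by this excess SD, 345 genes each, are called stable and variable. The median SD was 0.42 for stable genes, 0.86 for all and 1.98 for variable genes. These values chose the classes and are a description. Mbnl1, with an SD of 0.42 at a median of 33.5 RPKM, was the last stable gene and Abraxas1 the first outside. Gm20503, with an SD of 1.76, was the last variable gene and Tmem141 the first outside.

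The 10 genes of lowest excess SD were Rsu1, Tln1, Osbpl9, Dock10, Paxbp1, Scaf11, Smim14, Tmem135, Purb and Cpsf6, all between 10.2 and 13.1 RPKM at the median. The median SD of all genes was 0.99 at 10 to 30 RPKM and 0.70 at 100 to 300 RPKM. More was thus subtracted near the floor of 10 RPKM, and this order favours genes there. By plain SD St3gal6, at 0.11 with a median of 44.2 RPKM, was below Rsu1, at 0.25, but it came 17th by excess SD. Rsu1 and Tln1, which encode components of integrin adhesion sites, were at 8.32 to 16.9 RPKM and 8.36 to 12.97 RPKM. Dock10 activates small GTPases of the cytoskeleton, and Paxbp1, Scaf11 and Cpsf6 act on RNA. Among stable genes of higher level were Ctss, with an SD of 0.27, and Itm2b, with one of 0.28 at a median of 1292 RPKM. No stable gene fell below 1 RPKM in any retina, against 895 of all 3448 genes (26.0%). Such a drop raises the SD that chose the class, so this count describes the choice. Stable transcripts had a median length of 1175 bases and a GC content of 46.2%, against 899 bases and 48.9% for all.

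The 10 genes of highest excess SD were H2-Ab1, Cd74, Gm10800, H2-Aa, H2-Eb1, Pf4, Ms4a4a, E130218I03Rik, Rtbdn and Gm38158, so that 4 of them were MHC class II genes. Ms4a4a, a membrane protein of macrophages, was at 0 RPKM in 2 retinas, 59.8 at the median and 315 in retina 2. Rtbdn, which encodes a riboflavin-binding protein of photoreceptors, was at 0.0692 to 112 RPKM with a median of 41.4. Gm10800, a predicted gene of chromosome 2, ran the opposite way, at 155 to 1063 RPKM in retinas 3 to 6 and 1.23 to 29.1 RPKM in the other 6. Of the 345 variable genes, 336 had a lower mean log2 level in retinas 3 to 6 than in the other 6. Low values in these retinas also raise the SD that chose the class, and the share over all 3448 genes is not given here. The count therefore describes the choice. In at least 1 retina 308 (89.3%) fell below 1 RPKM, against 26.0% of all 3448, and 142 (41.2%) were at 0, against 9.37%. Such values raise the SD as well, so these shares also describe the choice. The median GC content of the variable genes was 53.4%. Retina 4 was the lowest for 149 of them and retina 3 for 134, whereas retina 7 was the highest for 112. Extreme values in a retina raise the SD that chose the class, so these counts describe the choice too.

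The spread lay mostly in experiment 1. Over all 3448 genes the median SD was 1.00 in its 6 retinas and 0.24 in the 4 of experiment 2, and for the variable genes it was 2.25 and 0.31. Pairwise correlations of log2(RPKM + 1) over the 10411 genes that reached 1 RPKM in 5 or more retinas had medians per retina of 0.67 to 0.85, reached 0.97 within experiment 2 and fell to 0.51 between retinas 1 and 4. Genes are not independent replicates and these values are descriptions. The first principal component held 47.0% of the variance, with retinas 3 to 6 at one end, and 37.8% after the trends with GC content and length had been removed, again with these 4 at that end.

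**Figure D5:**
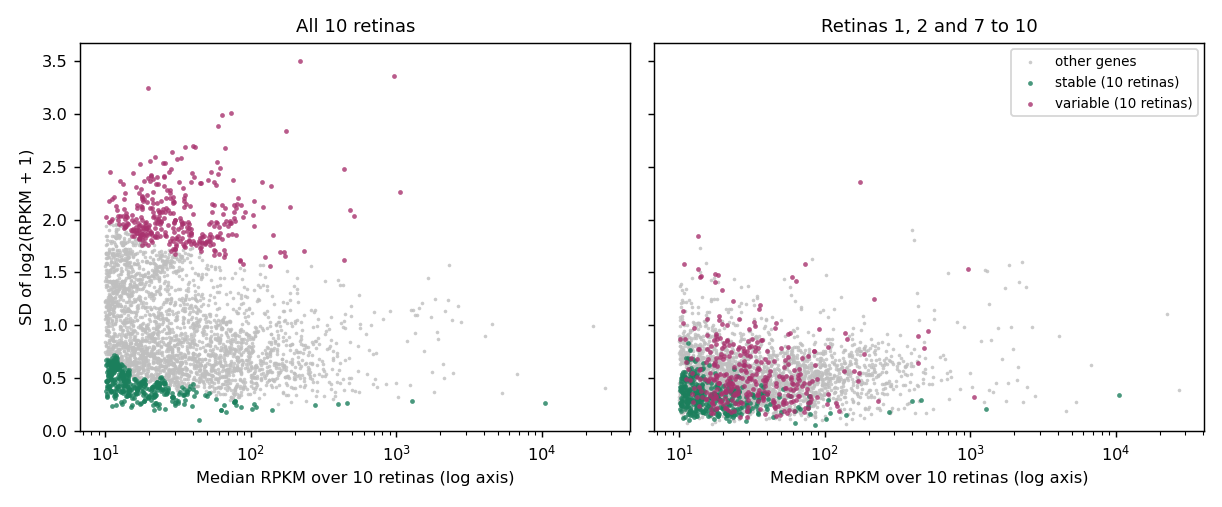
SD of log2(RPKM + 1) against median RPKM (log axis) for 3448 genes with a median of at least 10 RPKM, over all 10 retinas (left) and over the 6 retinas other than 3 to 6 (right). Each point is a gene, green for the stable and magenta for the variable class of the 10 retinas. The median SD of variable genes is 1.98 on the left and 0.49 on the right.

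Without retinas 3 to 6 the classes shared few genes with those above. Over the remaining 6 retinas, 48 of the 367 most variable genes (13.1%) were among the 345 above (13.9% of these), and 91 of the 367 most stable (24.8%) were among the first stable 345 (26.4%). Pf4 was now first, at 4.23 RPKM in retina 1 and 188 to 410 RPKM in the other 5, followed by Snurf, Atp6v0e2, Lgals3 and Gm28661. Of these, Lgals3, which encodes galectin-3, was at 1.18 to 66.6 RPKM, and Gm28661 belongs to the mitochondria-like stretch of chromosome 1. The transcription factor gene Junb, in eighth place, was at 143 RPKM in retina 1 and 2.73 to 28.8 RPKM in the other 5. All 13 mitochondrially encoded mRNAs and 4 of 8 MHC class II genes with a median of at least 10 RPKM were among these 367 most variable genes. Of the 367, 172 were highest and 147 lowest in retina 1. The most stable genes were now Ppt1, a lysosomal thioesterase (140 to 159 RPKM), Slamf9 (145 to 180 RPKM) and Bst2, or tetherin (83.6 to 94.1 RPKM). After the trends with GC content and length had been removed from all 10 retinas, H2-Ab1, Cd74, Pf4, H2-Aa, Ms4a4a and H2-Eb1 were still among the 7 most variable genes.

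Differences between the experiments and between eyes were tested on the 10411 genes with limma, and a gene was called where its adjusted p did not exceed 0.05 and its groups differed 2-fold or more. Experiment 2 against experiment 1 gave 0 genes (0%), with 1720 at an unadjusted p below 0.05, a smallest adjusted p of 0.0974 and a median difference over all genes of 0.45 on the log2 scale. P2ry12 was higher in experiment 2 by 0.89 ± 0.32 on the log2 scale (SE, adjusted p = 0.224 by limma), Siglech by 0.74 ± 0.33 (adjusted p = 0.286) and Mertk had a difference of -0.76 ± 0.39 (adjusted p = 0.337). Gpr34 and Cx3cr1 differed by 0.09 ± 0.33 and 0.08 ± 0.47. None of the 5 markers passed the test with all 10 retinas.

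A single retina decided this count. Without retina 1, limma called 1099 of 9790 genes (11.2%), 835 higher (8.53%) and 264 lower (2.7%) in experiment 2, with a median difference of 0.58 on the log2 scale. Without retina 2 it called 40 of 10018 (0.399%), 31 higher (0.309%) and 9 lower (0.0898%), and without the few-gene retinas, or with the GC and length trends removed from all 10, it called 0, with 1642 and 1643 genes at an unadjusted p below 0.05. In the fit without retina 1, P2ry12 was higher in experiment 2 by 0.98 ± 0.21 on the log2 scale (SE, adjusted p = 0.0237 by limma) and Siglech by 0.91 ± 0.21 (adjusted p = 0.0264), so that both passed the threshold on p and missed only the 2-fold limit. In that fit 2 of 27 homeostatic genes passed, both higher, of which P2ry13 differed by 1.31 ± 0.27 on the log2 scale (adjusted p = 0.0225). B2m differed by 1.61 ± 0.22 (adjusted p = 0.0170) and C1qa by 3.46 ± 0.83 (adjusted p = 0.0300). Of 15 rod genes 10 passed, all higher in experiment 2, with a median difference of 2.49. Of 22 transcription factors tested 3 passed, all lower in experiment 2, namely Bhlhe41, Fli1 and Lyl1. Since retinas 3 to 6 make up 4 of the 5 retinas of experiment 1 in that fit, the experiment and the few-gene retinas cannot be told apart.

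Right against left eyes gave 0 genes as well (0%), with 205 of 10411 at an unadjusted p below 0.05 and a smallest adjusted p of 1.00. In experiment 1 alone and in experiment 2 alone, limma also called 0 genes, with 197 and 388 at an unadjusted p below 0.05. A p that misses the threshold does not show that the eyes were alike.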

How the data were processed

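Per the methods, the authors made SMART-Seq v4 cDNA from cells of 1 retina, Nextera XT libraries and NextSeq 500 reads, ran bcl2fastq (2.20) and STAR (2.5.3a, mm10), and quantified Ensembl transcripts by expectation maximisation in Partek, and deposited the values as RPKM. Whole reads cannot be recovered from these. The authors' 2 tables of LPS comparisons, which hold p-values, ratios, fold changes and F statistics, were not used.

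Genes were ranked by median RPKM over 10 retinas. Coordinates, GC content and length came from GENCODE M21 (38735 genes matched by name). SD is of log2(RPKM + 1), and excess SD is SD minus its running median over 301 genes of nearest level. Experiment and eye differences were tested with limma (3.58.1, R 4.3.3) on log2(RPKM + 1), both in 1 model with a mean-variance trend, for 10411 genes with at least 1 RPKM in 5 or more retinas, with Benjamini-Hochberg adjustment. The limma step was tested on simulated data.

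Genes were named as the 5 markers, the 20 highest, the 10 most stable and 10 most variable, the up to 4 highest of each list, defining markers of other cells and called genes. Some genes that this rule names are not reported here. All other named genes were chosen after their values were seen. The members and lists were chosen with earlier results of these data known. Alternatives varied pseudocount, filter, scaling, detection level, spread measure and retinas.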

Additional observations from a re-analysis of the deposited data

Results flagged for a closer look

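In 31 of 205 groups of 10 values, a single retina lay further from the rest than Dixon's criterion at the 95% level allows. The criterion takes the gap to the nearest neighbour relative to the whole range. Its level assumes independent groups of normally distributed values. These groups held untransformed RPKM and shares, lists beside their own members, and genes picked for a high SD. The count of 31 therefore has no chance rate to be set against. Retina 1 was the one apart in 17 of the 31, and the explanation of these values was not tested.

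Retina 1 was apart for the summed shares of transcription factors (0.243%), CSF1 and TGF-beta genes (0.349%), immediate early genes (0.233%), toll-like receptors (0.555%) and the neutrophil list (0.0279%), all high, and for mitochondrially encoded mRNAs (0.553%), low. The high neutrophil share was that of Csf3r, a receptor gene also in the CSF1 list, at 83.0 RPKM, while the defining neutrophil markers were listed at 0. Retina 1 was also high for Cx3cr1 (318 RPKM), P2ry6 (93.0 RPKM), Csf1r (558 RPKM), H2-D1 (787 RPKM), H2-K1 (188 RPKM), Unc93b1 (520 RPKM), the rod factor Nrl (56.8 RPKM) and Nr4a1 (3.598 RPKM). It was low for mt-Cytb (267 RPKM) and mt-Atp8 (153 RPKM).

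Retina 2 was high for the MHC class II share (1.58%), for H2-Ab1 (899 RPKM) and Cd74 (4694 RPKM), and for the pericyte gene Rgs5 (0.796 RPKM). Retina 3 was high for Hhex (99.5 RPKM), Ccl12 (2758 RPKM) and Best1 (6.55 RPKM), and retina 4 for Gm10800 (1063 RPKM). Retina 5 was high for Pecam1 (4.10 RPKM), retina 6 for the cone opsin Opn1mw (314 RPKM), Tyms (15.0 RPKM) and S100a4 (13.4 RPKM), and retina 7 for Pdgfrb (0.120 RPKM) and Lck (0.416 RPKM).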

How the results depend on the processing

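The median RPKM of named genes moved by less than the SD between retinas in 2406 comparisons with an alternative setting and by more in 39. The list shares moved by less in 445 and by more in 10. Most of these settings left out 1 retina, which can move a median only little against that SD, so these counts say little. Counts of calls and the stable and variable classes depended on the settings. No paired analysis was possible because the naïve retinas of the 2 experiments, and of the 2 sides, share no replicate numbers. Genes called between experiments numbered 2 with a pseudocount of 10, 27 without a filter, 1 after quantile normalisation and 1 without the covariate for eye, and 0 to 1099 when each retina was left out in turn. The eye gave 0 throughout. The median number of genes detected was 15497 at 0.1 RPKM, 5508.5 at 5 RPKM and 8349.5 in experiment 1 alone, and 10358 to 11129 with each retina left out. The difference in genes detected by experiment was 4975 genes at 0.1 RPKM (exact permutation p = 0.00952, adjusted p = 0.0190), the smallest p possible, and 2105 to 3160 with each retina left out. The top 100 share was 47.8 to 48.4% and its difference -2.34 to 0.666 points with each retina left out. Of the 20 highest genes, 19 to 20 remained with each retina left out.

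Of 345 stable genes, 204 remained by plain SD, 131 by median absolute deviation, 196 with a pseudocount of 10, 22 of 100 at a median of at least 50 RPKM and 220 to 297 with each retina left out. Of 345 variable genes, 129 remained by CV, 118 by median absolute deviation, 179 with a pseudocount of 10, 87 of 100 at a median of at least 50 RPKM and 227 to 321 with each retina left out, the fewest without retina 4. Chosen after seeing the data were the settings without retinas 3 to 6 (91 stable and 48 variable genes shared), with GC and length trends removed (173 stable shared) and with protein-coding nuclear genes only (12 of 20 highest genes shared). The last count was fixed by the restriction. The causes were not tested. Depth limits statements on genes below about 0.114 RPKM, where a value can rest on 1 read.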
